A study of Mus musculus with 6 samples.

Results

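Proximal tubule S2 cells line the middle stretch of the proximal tubule, between the S1 cells of the early convoluted part and the S3 cells of the straight part that enters the outer medulla. In the mouse kidney data described here, 8052 of 24212 kept cells were counted as S2 cells, out of 34034 cell barcodes deposited. A kept cell had 200 to 3000 detected genes and at most 50% of its unique molecular identifiers (UMIs, each standing for 1 captured RNA molecule) on mitochondrially encoded genes. An S2 cell had at least 4 UMIs summed over Slc22a8, Slc22a6 and Acy3, more than over either 5 S1 genes (Slc5a2, Spp2, Car3, Slc34a3 and Apob) or 4 S3 genes (Slc22a7, Cyp2a4, Mep1b and Slc7a13). It also had no UMI of the leukocyte gene Ptprc or the endothelial gene Pecam1, and fewer than 4 UMIs of Krt8, F3 and Gdf15 together. Because the cells were picked by these UMI sums, levels of the 12 segment genes and contrasts with S1 and S3 cells are descriptions without a test.

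The study compared ways of breaking tissue into single cells. Kidneys of male C57BL/6 mice aged 12 weeks were minced and digested with type I collagenase, either for 60 min in a shaken tube followed by pipetting and vortexing (control) or in a microfluidic digestion platform from which cells were taken at 15 min and at 60 min. Platform cells were collected as successive intervals: the 15 min cells were eluted, collagenase was replaced and the tissue left was processed further. The 60 min library therefore held cells released after that collection and was not a full 60 min digest like the control. Live, SytoxBlue-negative cells were sorted before droplet capture. Each of the 3 conditions was 1 library. According to the study's reporting summary, control and device conditions of a replicate used tissue of the same mouse. No p-value is therefore given for any difference between conditions, intervals are 95% limits that cover counting error only, and the condition cannot be told apart from the library.

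S2 cells take organic anions, drugs and their conjugates out of the blood. Slc22a6 encodes OAT1 and Slc22a8 encodes OAT3, the basolateral organic anion transporters that exchange these solutes for dicarboxylates, and apical carriers then release them into the urine. Acy3 encodes an aminoacylase that removes the acetyl group from mercapturates and other acetylated amino acids. Along with S1 and S3 cells, S2 cells reabsorb filtered phosphate, glucose, amino acids and proteins, and in male mice they carry the androgen-responsive transcript Kap.

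All 3 genes that defined the S2 cells lie on chromosome 19 and on its plus strand in mm10. Acy3 spans 3986570 to 3990007, Slc22a8 spans 8591254 to 8611835 and Slc22a6 spans 8618039 to 8628299, so that the genes of both transporters are neighbours. The 150 bases before each RefSeq gene start (build GRCm38.p6) are shown because the members were chosen by the summed RNA of these genes. Capitals mark TATAA or its reverse complement TTATA, the core of a TATA box, and CAAAGT or its reverse complement ACTTTG, the core of a motif bound by HNF4A, a known regulator of proximal tubule genes. TATAA was added to the search after the sequences were seen. The printed windows lie at chr19:8593032-8593181 for Slc22a8, chr19:8617846-8617995 for Slc22a6 and chr19:3986420-3986569 for Acy3, and the first of them falls inside the Slc22a8 span given above because RefSeq starts that gene later. RefSeq also starts Slc22a6 slightly upstream of the start given above.
Slc22a8: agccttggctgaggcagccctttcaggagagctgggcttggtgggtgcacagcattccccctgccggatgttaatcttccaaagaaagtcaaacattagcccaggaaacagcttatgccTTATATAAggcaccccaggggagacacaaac
Slc22a6: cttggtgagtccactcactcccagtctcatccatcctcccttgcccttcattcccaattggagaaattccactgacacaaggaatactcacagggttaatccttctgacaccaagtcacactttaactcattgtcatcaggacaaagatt
Acy3: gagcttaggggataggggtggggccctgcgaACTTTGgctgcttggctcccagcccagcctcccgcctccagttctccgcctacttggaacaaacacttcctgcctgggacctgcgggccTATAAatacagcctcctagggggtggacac
Within the 300 bases from 250 before to 50 after each start, TATAA was found 28 bases before the start of Slc22a8, overlapping TTATA at 31 bases before it, and 30 bases before the start of Acy3. The window of Slc22a6 held neither motif. The HNF4A core was found 119 bases before the start of Acy3. Of 32851 RefSeq promoters of that length, 24.9% held the first motif and 14.4% the second on either strand, and a match of letters does not show a binding site. RNA of Hnf4a stood at 201, 188 and 213 UMI counts per 1000000 (CPM) in the S2 cells of the control, 15 min and 60 min libraries. CPM here scales the UMIs of a gene to all UMIs of nuclear-encoded genes, both summed over the S2 cells of a library.

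S2 cells numbered 1946 in the control library, 4746 in the 15 min library and 1360 in the 60 min library. The median depth of these cells was 6010, 7518.5 and 6599.5 UMIs per cell, with a median of 1779, 1917 and 1895.5 detected genes. Mitochondrial UMIs made up a median of 9.54%, 20.8% and 14.6% of a cell, so the 15 min cells stood highest on all 3 measures. Together the S2 cells of a library held 11317500, 30373200 and 7986990 nuclear-encoded UMIs (rounded to 6 digits), so that 3 UMIs, the limit allowed by a count of 0, corresponded to 0.265, 0.0988 and 0.376 CPM. Cell barcodes that occurred in more than 1 library were rare among the members, with 4 shared by the control and 15 min libraries, 1 by the control and 60 min libraries and 0 by both platform libraries.

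Acy3 carried most of the weight in the choice of cells. It supplied 76.2%, 65.8% and 70.4% of the UMIs of the 3 defining genes in the control, 15 min and 60 min libraries and was seen in 99.7%, 99.98% and 99.3% of the members. Slc22a6 was seen in 79.5%, 95.7% and 85.3% of members and Slc22a8 in 56.8%, 70.4% and 63.6%. A UMI of each of the 3 genes was present in 47.1%, 67.9% and 56.0% of members, while 10.9%, 1.81% and 7.65% had Acy3 alone. Members were also thinned to 2000 nuclear-encoded UMIs, which left out 201, 99 and 152 shallower members. The order was the same in the thinned cells, with Slc22a6 in 62.1%, 85.7% and 66.4% and Slc22a8 in 33.4%, 47.5% and 42.2% of cells. The cells with 2 or more Ptprc UMIs, in which these genes should be absent, held Acy3 UMIs in 21.03%, 23.1% and 16.7% of cells, at 61.8, 219 and 53.6 CPM and a median depth of 6569, 4901 and 5850 UMIs.

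Few cells sat at the edge of the definition. There were 181 members with exactly 4 UMIs of the defining genes (89 from the control, 29 from the 15 min library and 63 from the 60 min library), and 157 cells with 3 that met every other condition. The cells just inside had a median of 2176, 2720 and 2171 UMIs and those just outside 1960, 2178 and 1308, both far below the median member. Another 187 members led the nearer of the S1 and S3 sums by only 1 UMI, and 179 cells were left out because the sums were tied. The upper limit of 3000 genes alone removed 2198 cells that otherwise fitted, and the mitochondrial limit alone removed 183.

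Counted by the UMI sums that defined the segments, proximal tubule S2 cells outnumbered S1 and S3 cells in every library. Each cell went to its largest sum, and Acy3 supplied most of the S2 sum of the members, so this ranking depends on the rule. In the study's own clusters, S1 cells outnumbered the joint cluster of S2 and S3 cells at 60 min, but not at 15 min. The study's rounded values relative to the control put S1 cells slightly above that joint cluster in the control too. The S2 share of the suspension was highest in the 15 min platform library. Of the kept cells, S2 cells made up 33.1% (exact binomial interval 31.9 to 34.3) in the control library, 56.6% (55.5 to 57.6) in the 15 min library and 13.7% (13.0 to 14.4) in the 60 min library. Relative to the control, the share was 1.71 times as large at 15 min (1.64 to 1.78) and 0.414 times as large at 60 min (0.389 to 0.440). The 60 min library held only the later interval of the platform run. S1 cells, which had at least 4 UMIs of the S1 genes, more of these than of the other sums and met the same exclusions, made up 9.77%, 21.4% and 9.06%. S3 cells, defined in the same way from the S3 genes, made up 1.22%, 2.26% and 1.28%.

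**Figure D1:**
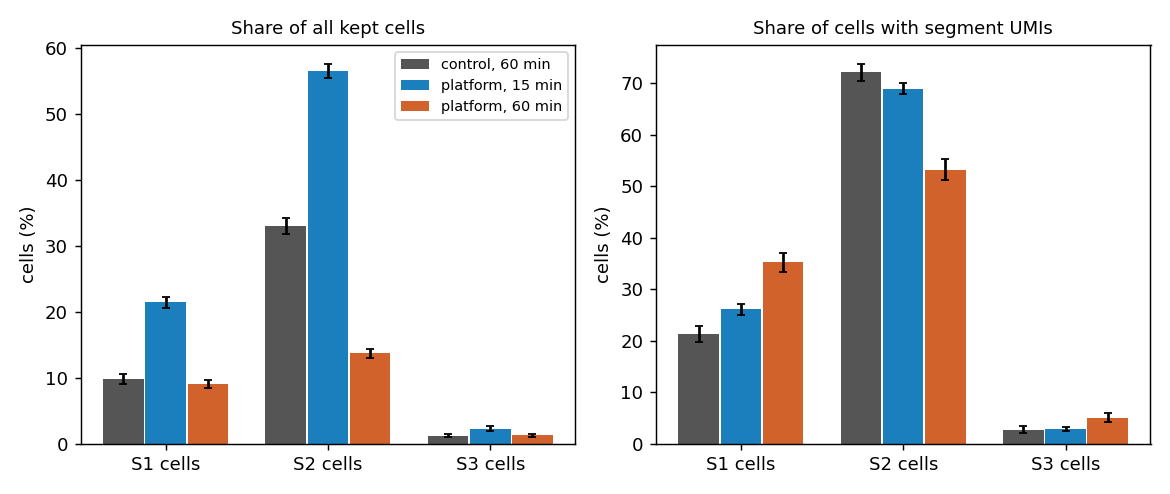
Share of S1, S2 and S3 cells in the control, 15 min and 60 min kidney libraries, as a percentage of all kept cells (left) and of cells with at least 4 UMIs of the 12 segment genes (right); bars show 1 library each and whiskers exact 95% binomial limits. S2 cells stood at 33.1%, 56.6% and 13.7% of kept cells, but at 72.1%, 68.9% and 53.2% of the cells with segment UMIs.

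Other cell types took different shares of the 3 suspensions. Cells with 2 or more Ptprc UMIs made up 16.8%, 3.86% and 20.2% of the kept cells in the control, 15 min and 60 min libraries, and those with 2 or more Pecam1 UMIs 7.37%, 3.83% and 19.2%. When S2 cells were counted only against cells with at least 4 UMIs of the 12 segment genes and the same exclusions (2700, 6887 and 2556 cells), they made up 72.1%, 68.9% and 53.2%. On that base the share at 15 min was 0.956 times that of the control, so the direction turned, and the share at 60 min was 0.738 times that of the control. The S1 share of the same base was 21.3%, 26.1% and 35.2%. When the kept cells with at least 2000 UMIs were thinned to that number, with 2 or more UMIs of the defining genes required, S2 cells made up 36.1%, 57.7% and 15.2% of 5042, 8060 and 8488 cells. The shallower cells left out numbered 844, 330 and 1448.

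Among the RNAs of the S2 cells, Kap was the most abundant in all 3 libraries, with 63034, 116829 and 64204 CPM in the control, 15 min and 60 min libraries. Kap encodes the kidney androgen-regulated protein of male mouse tubules. The ferritin chains Fth1 (26401, 22131 and 23483 CPM) and Ftl1, the sodium pump subunit Fxyd2, and Tpt1, Gpx3, Miox and Prdx5 followed, together with Gm42418, a transcript that overlaps a ribosomal RNA repeat. General proximal tubule genes were present at high levels, among them the phosphate carrier Slc34a1 (3040, 5693 and 3827 CPM), the endocytic receptor gene Lrp2 (511, 830 and 721 CPM) and the gluconeogenic enzyme gene Pck1 (1249, 1254 and 1273 CPM). The injury gene Havcr1 was at 0, 0.0988 and 0.125 CPM, at or under the limit of 3 UMIs in each library, and Lcn2 was at 0 in all 3.

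Set beside their neighbours along the tubule, S2 cells most often held an intermediate level. Of 2262 genes outside the rule at 50 CPM or more, 738 (32.6%) declined from S1 through S2 to S3 in 3 of 3 libraries and 283 (12.5%) climbed in that order in 3 of 3. S2 cells had the highest level of the 3 segments in 3 of 3 libraries for 361 genes (16.0%) and the lowest for 77 (3.40%). The other 803 genes did not keep 1 order. These counts describe the chosen cells and are not a test, since the cells were sorted by segment RNA and the S3 group held 72, 190 and 127 cells.

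The genes that peaked in S2 cells beyond both neighbours included Odc1, the rate-limiting enzyme of polyamine synthesis. Odc1 stood at 3206, 2581 and 2373 CPM in S2 cells of the control, 15 min and 60 min libraries, against 1062, 969 and 871 CPM in S1 cells and 1287, 1328 and 1052 CPM in S3 cells. No S1 or S3 value reached the lowest S2 value. Mkrn1, a ubiquitin ligase of the makorin family, followed the same shape at 213, 163 and 166 CPM in S2 cells, 85.1, 76.4 and 79.0 CPM in S1 cells and 76.4, 82.7 and 55.4 CPM in S3 cells. Slc51a encodes a subunit of the basolateral organic solute transporter, which carries bile acids and steroid sulfates. It stood at 86.4, 141 and 86.6 CPM in S2 cells against 21.4 to 45.5 CPM in S1 cells and 46.6 to 83.6 CPM in S3 cells. The nucleoplasmin Npm3 (181, 164 and 134 CPM), the fatty acid hydroxylase Cyp4a12a (53.2, 101 and 52.3 CPM) and the mitochondrial unfoldase Clpx (227, 227 and 223 CPM) were also among the 10 genes with the clearest S2 peak, together with Asb9, Spsb2, Tstd1 and Zfp787. Cyp4a12a has a near copy, Cyp4a12b, and UMIs of the pair may not be fully separable.

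**Figure D2:**
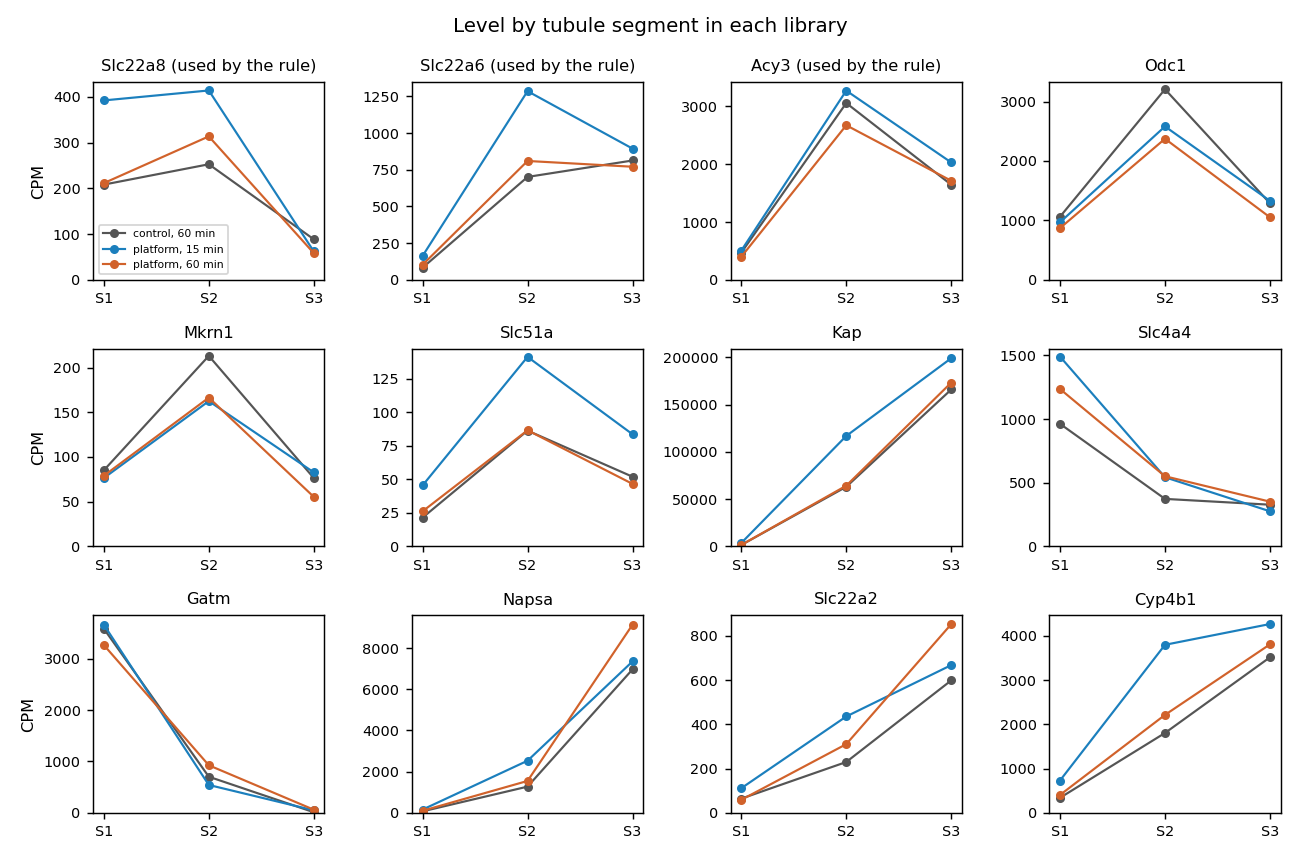
Level of 12 genes in S1, S2 and S3 cells of each kidney library, in CPM on linear axes that start at 0; each point is the sum over the cells of 1 segment in 1 library and lines join the segments of a library. Odc1, Mkrn1 and Slc51a peaked in S2 cells in 3 of 3 libraries, Gatm declined and Kap, Napsa, Slc22a2 and Cyp4b1 climbed from S1 to S3.

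The defining genes themselves were not equally S2-restricted. Acy3 was highest in S2 cells of every library (3057, 3272 and 2673 CPM) and lower in S3 cells (1645, 2030 and 1713 CPM) and S1 cells (469, 505 and 398 CPM). Slc22a6 stood at 701, 1285 and 810 CPM in S2 cells and at 813, 894 and 771 CPM in S3 cells, so the S3 level was the higher of the pair in the control. Slc22a8 leaned the other way. It stood at 253, 414 and 314 CPM in S2 cells, 208, 392 and 211 CPM in S1 cells and 88.7, 62.1 and 58.3 CPM in S3 cells.

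Genes known for S1 cells were present but lower in S2 cells. The creatine pathway enzyme Gatm stood at 703, 543 and 926 CPM in S2 cells against 3583, 3661 and 3266 CPM in S1 cells, and the basolateral bicarbonate exit route Slc4a4 at 373, 543 and 551 CPM against 962, 1490 and 1236 CPM. Lactate and amino acid carriers of the early tubule followed, with the lactate carrier Slc5a12 at 34.0, 39.3 and 60.6 CPM against 247, 350 and 335 CPM and the neutral amino acid carrier Slc6a19 at 51.0, 69.9 and 78.0 CPM against 286, 483 and 365 CPM. In each of these pairs the S2 value was lower in 3 of 3 libraries.

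Genes that climb toward S3 cells had reached part of their level in S2 cells. Kap rested at 1465, 3539 and 1482 CPM in S1 cells and at 166006, 199141 and 173303 CPM in S3 cells, with S2 cells between them in every library. The aspartic protease Napsa followed at 1273, 2530 and 1549 CPM in S2 cells, 72.9, 157 and 101 CPM in S1 cells and 6964, 7349 and 9132 CPM in S3 cells. The organic cation transporter Slc22a2 (OCT2) stood at 230, 436 and 311 CPM in S2 cells, between 64.3, 111 and 58.9 CPM in S1 cells and 599, 668 and 854 CPM in S3 cells. Slco1a1, an organic anion carrier of the apical membrane, was nearly absent from S1 cells (1.28, 9.01 and 2.01 CPM) and reached 284, 518 and 287 CPM in S2 cells.

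Members differed in which of the S1 and S3 sums was larger. Both sums are part of the rule and were low, so counting error alone also splits cells in this way. Members with more UMIs of the S1 genes than of the S3 genes made up 24.9% (23.01 to 26.9) of the control, 25.4% (24.1 to 26.6) at 15 min and 39.0% (36.4 to 41.6) at 60 min. Members leaning to S3 made up 53.0%, 67.7% and 47.2%, and the rest had equal sums. The equal group held 22.0% of control members but 6.95% and 13.8% of platform members, and 86.0%, 53.9% and 75.5% of it had no UMI of either set. Its cells were shallower, with a median of 3978, 5291 and 3934 UMIs and 4.76%, 18.6% and 12.5% mitochondrial UMIs. Their depth and the tie moved together, and the part of depth in it was not tested.

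Genes outside the rule followed that lean. Gatm stood at 1924, 1782 and 1918 CPM in the members leaning to S1 and at 141, 114 and 144 CPM in those leaning to S3, while Napsa stood at 449, 924 and 510 CPM and at 1870, 3151 and 2511 CPM. Odc1 was lower on the S1 side (1920, 1802 and 1764 CPM) than on the S3 side (3587, 2815 and 2781 CPM). Of the transporters that defined the cells, Slc22a8 was higher on the S1 side (350, 661 and 426 CPM against 214, 319 and 236 CPM) and Slc22a6 on the S3 side (503, 929 and 552 CPM against 877, 1415 and 1048 CPM). OAT1 and OAT3 RNA thus leaned to opposite ends of the S2 stretch in 3 of 3 libraries. The cells were split by S1 and S3 genes only, but they had already been chosen by these transporters, so the opposite lean is a description.

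Between the control and the 15 min library, the carrier and conjugation lists of S2 cells had medians above that of the bulk of genes at 15 min, and the early response list a median below it. Of 6159 genes at 10 CPM or more in the mean of both libraries, rule and mitochondrial genes left out, 41 (0.666%) were at least 2-fold higher at 15 min and 25 (0.406%) at least 2-fold lower. The median log2 ratio of these genes was -0.13, with 34.0% of genes above 0, so a log2 ratio near -0.13 is the level of the bulk of genes. Kap alone held 116829 CPM at 15 min, and with Kap left out of the totals the median was -0.04. The share of higher among called genes depended on the scaling: 62.1% as reported, 77.0% with Kap left out of the totals, 83.8% with the median set to 0 and 27.0% when mitochondrial UMIs, which were 21.5% of the summed UMIs at 15 min and 13.1% in the control, were counted in the total. Between the control and the 60 min library, 46 of 6305 genes (0.73%) were at least 2-fold higher and 3 (0.0476%) at least 2-fold lower. The median was 0.03, with 56.6% of genes above 0.

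**Figure D3:**
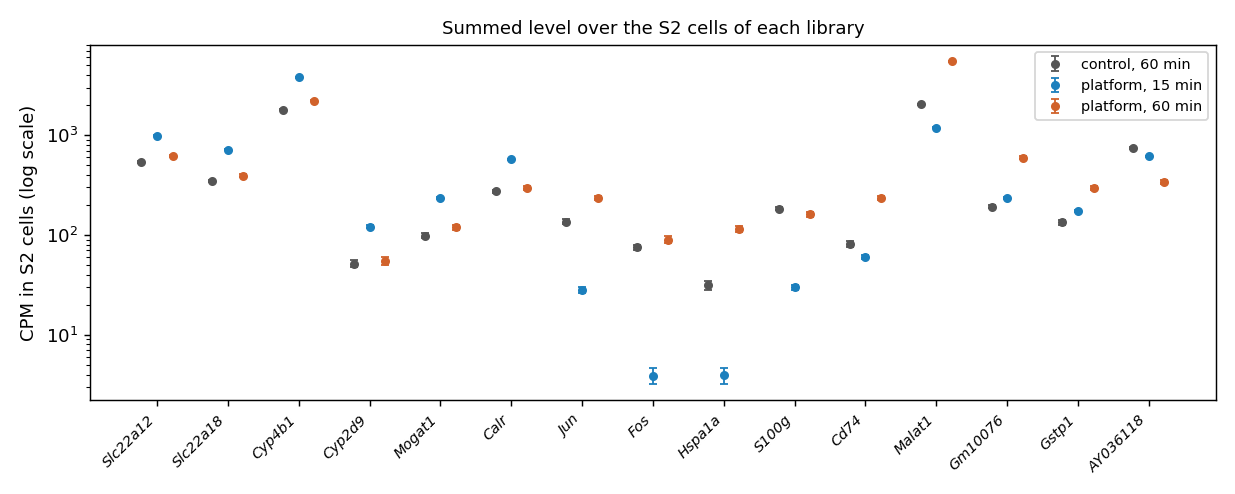
Summed level of 15 named genes in the S2 cells of each library, in CPM on a log axis; points are 1 library each and whiskers exact 95% Poisson limits. The transporter and metabolic genes on the left were highest at 15 min, Jun, Fos and Hspa1a were lowest at 15 min, and Gm10076, Gstp1 and AY036118 set the 60 min library apart.

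The carriers of organic anions and cations, the hallmark of these cells, had a median above that of the bulk of genes at 15 min. Of the 27 genes on this list, 18 were above the level filter, and all 18 had a ratio above 0 at 15 min and also at 60 min (with mitochondrial UMIs in the totals, Pdzk1 turned to -0.14 at 15 min and Slco1a1 to -0.02 at 60 min), with a median log2 of 0.83 at 15 min (bulk of genes -0.13) and 0.25 at 60 min (bulk 0.03). Of all genes above the filter, 34.0% lay above 0 at 15 min and 56.6% at 60 min. Only Slc22a18 of this list, an organic cation transporter-like protein, passed the 2-fold line, with 346, 715 and 391 CPM in the control, 15 min and 60 min libraries. The urate carrier Slc22a12 (URAT1) stood at 538, 989 and 615 CPM and the apical multidrug efflux carriers Slc47a1 (MATE1) and Abcg2 at 174, 273 and 206 CPM and at 306, 497 and 397 CPM. In each of these genes the 15 min value was the highest and the control value the lowest. The scaffold gene Pdzk1, whose product holds such carriers at the apical membrane from the cytosolic side, differed little at 606, 609 and 680 CPM.

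Across other reabsorptive groups the picture was alike. Of 15 amino acid and peptide carriers above the filter, all had a ratio above 0 at 15 min and at 60 min (Slc7a9 turned to -0.02 at 60 min with mitochondrial UMIs in the totals), with medians of 0.71 and 0.40, and Slc6a18, a neutral amino acid carrier, passed 2-fold with 54.8, 118 and 65.9 CPM. Of 19 genes of sodium, phosphate, glucose and bicarbonate handling, 17 lay above 0 at 15 min (Slc9a3r1 turned to -0.13 with mitochondrial UMIs in the totals), with a median of 0.65. Slc5a10, an apical mannose and fructose carrier, stood at 92.4, 191 and 107 CPM, and Slc34a1 reached a log2 ratio of 0.91. The exceptions below 0 were the cytosolic carbonic anhydrase Car2 (425, 305 and 521 CPM) and Fxyd2 (11741, 8858 and 10929 CPM).

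**Figure D4:**
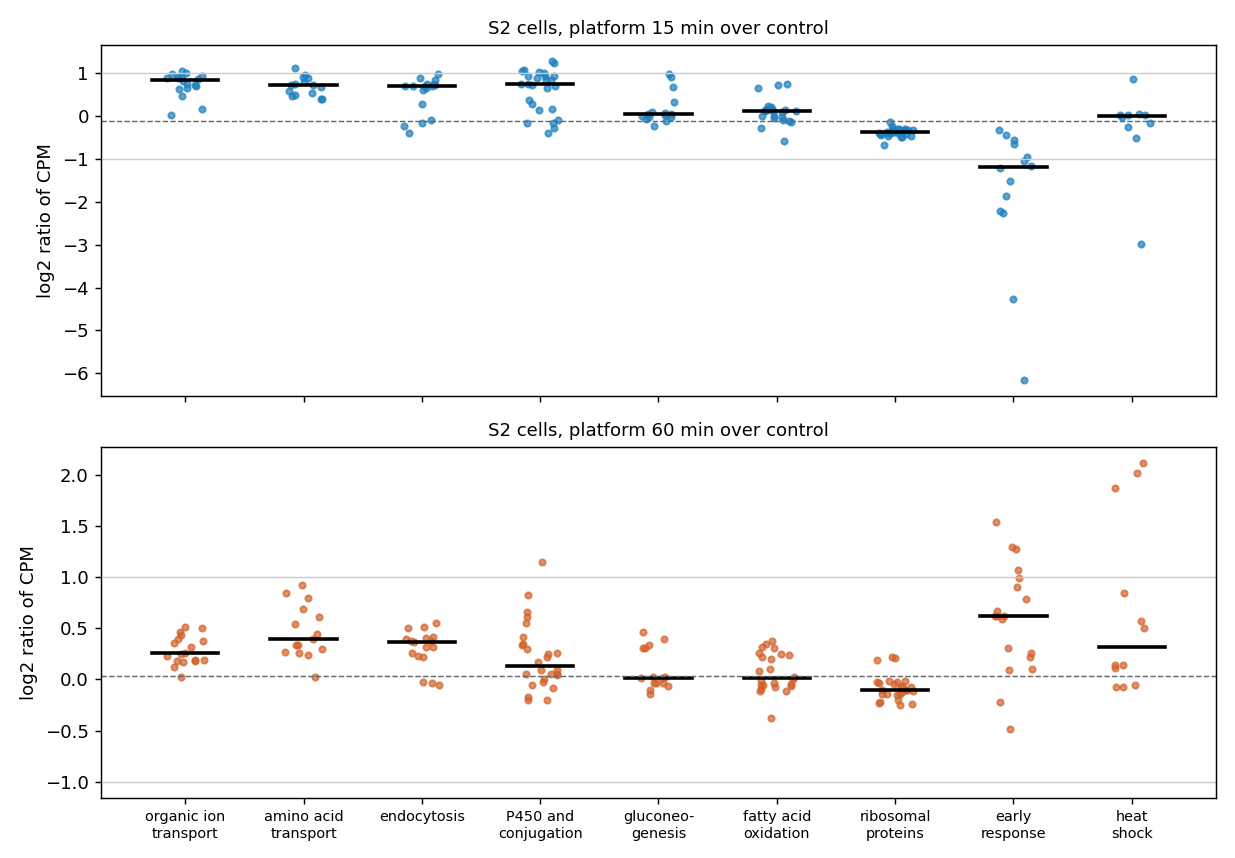
Log2 ratio of CPM in S2 cells, platform 15 min over control (top) and platform 60 min over control (bottom), for genes of 9 lists above the level filter; each point is 1 gene, black bars are list medians, the dashed line is the median of all genes and grey lines mark 2-fold. Carrier, endocytosis and conjugation lists lay above the dashed line at 15 min, ribosomal protein and early response lists below it.

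In the endocytosis list, genes of membrane and lysosomal products and genes of cytosolic ones had different values at 15 min, a grouping made after the values were seen. The receptors Lrp2 (0.70) and Cubn (0.65) and their partner Amn (0.97), the lysosomal proteases Ctsb (0.70), Ctsl (0.73) and Ctsd (0.83), the lysosomal membrane proteins Lamp1 (0.69) and Lamp2 (0.71), and the chaperone Lrpap1 (0.89) all had clear positive log2 ratios at 15 min. The cytosolic adaptor Dab2 (-0.25), the clathrin light chain Cltb (-0.17) and the small GTPases Rab11a (-0.10) and Rab7 (-0.41) had negative ones. None of the 17 genes passed 2-fold in either direction, and the list median was 0.69 at 15 min and 0.37 at 60 min. Counting mitochondrial UMIs in the totals gave a list median of 0.55 at 15 min. The difference between both kinds of product was not tested.

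Several drug-metabolizing enzymes passed 2-fold at 15 min. Of 26 genes above the filter out of 35 of cytochrome P450s, glucuronidation, glutathione and esterases, 6 were at least 2-fold higher at 15 min and 0 lower, and the median log2 was 0.74. Over all genes above the filter, 41 of 6159 (0.666%) were at least 2-fold higher. With mitochondrial UMIs in the totals that count over all genes was 10 of 5654. The xenobiotic and fatty acid hydroxylase Cyp4b1 stood at 1805, 3797 and 2214 CPM in the control, 15 min and 60 min libraries, a log2 ratio of 1.07 (1.05 to 1.09) at 15 min. Cyp4a10 (36.5, 88.9 and 42.6 CPM) and Cyp2d9 (51.5, 121 and 55.0 CPM) reached log2 ratios of 1.29 and 1.23. The glucuronosyltransferase Ugt2b37 (168, 343 and 257 CPM) and the carboxylesterases Ces1d (223, 446 and 281 CPM) and Ces2c (307, 635 and 319 CPM) completed the 6. Their log2 ratios at 15 min, 1.03, 1.004 and 1.05, lay close to the 2-fold line. Cyp2a5, outside the list but among the 10 highest ratios, stood at 62.2, 137 and 71.9 CPM. It is close in sequence to Cyp2a4, one of the S3 genes of the rule, and the P450, Ugt2b and carboxylesterase families contain near copies, so single values in them are uncertain. In the same list the cytosolic glutathione transferases Gsta2 (-0.41) and Gsta3 (-0.18) lay below 0 at 15 min, and at 60 min the median was 0.13.

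Several other genes that passed 2-fold at 15 min, named here after their values were seen, have products in the endoplasmic reticulum or the secretory path. They included the calcium-binding chaperone Calr (275, 572 and 296 CPM), the monoacylglycerol acyltransferase Mogat1 (98.3, 236 and 119 CPM, a log2 ratio of 1.26), the retinol saturase Retsat (48.6, 101 and 53.6 CPM) and the secreted nuclease Dnase1 (721, 1486 and 843 CPM). Gpaa1, Alg1 and Dolk, which act in the making of glycolipid anchors and N-glycans, and the secreted or lysosomal products Apoh, Agt, C2 and Man2b1 also passed, at 7.16 to 94.7 CPM. No enrichment was tested.

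Central metabolism of S2 cells had no gene past 2-fold. That held for 15 gluconeogenesis and fructose genes, 24 fatty acid oxidation genes and 22 amino acid metabolism genes in both comparisons, with medians between 0.01 and 0.11 that turned at 15 min to -0.11, -0.04 and -0.12 when mitochondrial UMIs were counted in the totals. Fbp1 stood at 1744, 1720 and 1757 CPM and Pck1 at 1249, 1254 and 1273 CPM. Within the gluconeogenesis list the highest ratios at 15 min were those of the glucose-6-phosphate translocase Slc37a4 (0.90), the fructose carrier Slc2a5 (0.97) and the mitochondrial pyruvate carboxylase Pcx (0.67). Cytosolic ribosomal protein genes were below 0 at 15 min in 26 of 26 cases, with a median of -0.39 (between -0.53 and -0.26 under the other 3 scalings) and none at 2-fold, and among the abundant genes Rpl41, Rpl36al and Rps28 had ratios of -0.68. The median of 28 nuclear-encoded respiratory chain genes was -0.10 at 15 min and turned to 0.03 with the median of all genes set to 0, while 12 of 13 mitochondrially encoded RNAs took a larger part of all UMIs at 15 min than in the control, by 1.35-fold for mt-Nd5 to 1.83-fold for mt-Nd3.

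S1 cells had like values. The organic ion, conjugation and endocytosis lists had medians of 0.84, 0.77 and 0.69 at 15 min in S1 cells, near those of S2 cells, and of 0.02, 0.12 and -0.04 in S3 cells, of which the control library had only 72. Cells with 2 or more Ptprc UMIs also carried more of these RNAs at 15 min: Kap stood there at 1213, 8415 and 1699 CPM and Slc34a1 at 94.5, 462 and 138 CPM in the control, 15 min and 60 min libraries. The part of RNA from other cells, of the S3-leaning share of members and of depth in the S2 values was not tested. Among the members leaning to S1 alone the number of genes at least 2-fold higher at 15 min was 86, and among the S3-leaning members alone it was 13.

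S1 and S3 genes that the rule did not use mostly had ratios above 0 in S2 cells at 15 min. Of 9 S3 genes above the filter, 9 were above 0 and Slc6a18 passed 2-fold, with a median of 0.89, and of 8 S1 genes 7 were above 0, with a median of 0.41. At 60 min the medians were 0.25 and 0.50. The 15 general identity genes had medians of -0.01 and 0.21, with none past 2-fold.

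Androgen-responsive genes of the male kidney were mixed. Of 10 above the filter, 8 were above 0 at 15 min (Acsm3 turned to -0.02 with mitochondrial UMIs in the totals), and Kap, Slco1a1, Cyp4a12a and Cyp4b1 had log2 ratios of 0.89, 0.87, 0.92 and 1.07. Odc1, an androgen target that marked S2 cells above, went the other way at 15 min (-0.31) and at 60 min (-0.43), as did the ketosteroid reductase Akr1c21 (-0.14 and -0.03). The list median at 60 min was -0.01.

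Early response genes, which tissue handling is known to induce, had their lowest sum at 15 min. Over the whole list it stood at 999, 456 and 1358 CPM in the control, 15 min and 60 min libraries. Of 14 members of that list above the filter, 9 were at least 2-fold lower at 15 min and none had a ratio above 0, with a median of -1.20. Over all genes above the filter, 25 of 6159 (0.406%) were at least 2-fold lower. The filter is set on the mean of the libraries compared, so genes could pass through their control level. That count and median are therefore no support for a direction. Fos, a subunit of the AP-1 factor, stood at 75.02, 3.89 and 89.8 CPM in the S2 cells of the control, 15 min and 60 min libraries, and its partner Jun at 136, 28.2 and 234 CPM. Atf3, a stress-induced factor, stood at 21.03, 0.296 and 44.2 CPM, Junb at 37.3, 7.97 and 59.2 CPM and the phosphatase gene Dusp1 at 34.9, 14.9 and 65.1 CPM. In all 5 genes the 15 min library was the lowest and the 60 min library the highest. At 60 min 19 members were above the filter, which is set on the mean of the libraries compared, so that some passed through their level at 60 min and their count and median are no support for a direction. Of these, 4 passed 2-fold above the control, Atf3, Egr1 (19.2, 0.790 and 46.3 CPM), Fosb and Klf2, and the median was 0.62. Over all genes above the filter, 46 of 6305 (0.73%) were at least 2-fold higher at 60 min.

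In thinned cells the pattern of Fos and Jun held. With members thinned to 2000 nuclear-encoded UMIs and shallower members left out as above, a Fos UMI was found in 8.48%, 0.646% and 10.2% of S2 cells and a Jun UMI in 12.1%, 3.96% and 16.6%. S1 cells had the same order for Fos, at 83.8, 23.4 and 175 CPM, and for Jun, at 251, 204 and 924 CPM. The log2 ratio of Jun at 15 min was -0.30 in S1 cells against -2.27 in S2 cells. In S3 cells Jun kept the order at 177, 65.7 and 350 CPM, but Fos was highest in the control at 101, 25.2 and 59.7 CPM. The list median at 15 min was -0.67 in S1 cells, -1.20 in S2 cells and -1.39 in S3 cells. Leukocytes and endothelial cells had far higher levels of early response RNA, with Fos at 1297, 2329 and 3372 CPM in cells with 2 or more Ptprc UMIs and at 2553, 1052 and 3327 CPM in cells with 2 or more Pecam1 UMIs. Those cells were fewest in the 15 min library. In S2 cells the log2 ratio of Fos at 15 min was -4.27. Cd74, an antigen presentation gene of leukocytes, stood in S2 cells at 81.7, 60.6 and 232 CPM, a log2 ratio of -0.43 at 15 min. Ratios of other genes known from leukocytes ranged widely there, at -0.28 for H2-Ab1, -1.08 for H2-Aa, -1.92 for C1qb, -2.54 for Il1b and -2.57 for Ccl4. The part of RNA from other cells in the early response values was not tested.

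Heat shock genes had unlike values. Of 10 above the filter at 15 min, only Hspa1a was at least 2-fold lower, while Hspa1b and Hspb1 lay below the filter there. Hsp90aa1 and Hsph1 had log2 ratios of 0.01 and 0.05 at 15 min. The inducible Hspa1a stood at 31.3, 3.92 and 114 CPM, a log2 ratio of -3.00 (-3.31 to -2.69) at 15 min and 1.87 (1.69 to 2.05) at 60 min, and Hspa1b and Hspb1 also passed 2-fold at 60 min with 58.6 and 31.8 CPM. In the control Hspa1b and Hspb1 stood at 14.5 and 7.33 CPM, so Hspb1 passed the filter through its level at 60 min. Hspa1a and Hspa1b are near copies, so UMIs may be divided between them. The constitutive Hspa8 (2353, 2309 and 2230 CPM), Hsp90ab1 and Hspd1 had log2 ratios between -0.08 and 0.14 in both comparisons. The endoplasmic reticulum chaperone Hspa5 stood at 246, 443 and 364 CPM, highest at 15 min. In thinned cells Hspa1a was found in 3.67%, 0.624% and 9.19% of S2 cells.

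Few injury genes were abundant enough in S2 cells to be counted. Of 19 injury genes only Spp1 was above the filter at 15 min (35.4, 32.7 and 61.7 CPM). At 60 min 3 were above it, all with a ratio above 0 and a median log2 of 1.14, and Tmsb10 and Cryab passed 2-fold at 30.9 and 25.04 CPM. In the control these genes stood at 6.89 and 11.4 CPM. The filter is set on the mean of the libraries compared, so genes could pass through their level at 60 min. That count and median are therefore no support for a direction. Summed over the whole list, injury RNA stood at 76.0, 54.7 and 165 CPM in the control, 15 min and 60 min libraries, highest at 60 min. In S1 cells the sum was 712, 1060 and 857 CPM and in S3 cells 633, 344 and 460 CPM, so 60 min was not highest there. Among 16 antioxidant genes, the metallothionein Mt1 was at least 2-fold lower at 15 min with 25.6, 11.6 and 36.7 CPM. The ferritin genes had ratios of -0.25 for Fth1 and -0.32 for Ftl1, and Gpx3, whose product is secreted, stood apart at 0.41.

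Markers of other cell types moved with the library in the S2 cells. The 9 macrophage markers summed to 114, 72.8 and 322 CPM in the control, 15 min and 60 min libraries, with none of them at 0 in any of the 3, and 8 endothelial markers summed to 6.01, 5.66 and 50.8 CPM. Of the 46 genes at least 2-fold higher at 60 min, some are known from such cells: the major histocompatibility genes H2-Aa, H2-Ab1 and H2-Eb1, Cd74, Lyz2, C1qb, the chemokines Ccl3 (3.799 CPM in the control and 36.7 CPM at 60 min) and Ccl4 (8.39 and 84.3 CPM), Il1b (4.42 and 51.2 CPM) and the endothelial Fabp4 (2.47 and 27.0 CPM). In cells with 2 or more Ptprc UMIs, Ccl4 stood at 5829, 2158 and 13694 CPM. The 5 listed loop of Henle genes summed to 582, 555 and 647 CPM in S2 cells. Of these, Umod (44.6, 14.1 and 103 CPM) and Slc12a1 (9.28, 3.23 and 27.3 CPM) followed the same order as the macrophage sum. Cldn10 did not, with a log2 ratio of 0.04 at 15 min. At 60 min 3 of the listed genes above the filter had a ratio above 0 and 1 a ratio below 0. The part of RNA from other cells in these values was not tested.

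Single cells made some of the calls. One member held 96.8% of the Igkc UMIs at 15 min, and the same library had over 95% of its Ighm, Jchain and Acta1 UMIs in 1 cell each. Without its highest member in each library, the log2 ratio of Igkc was -0.95 in place of 3.40. At 60 min 1 member held 99.8% of the Hbb-bs UMIs, and Hba-a1, Hba-a2 and Hbb-bt were as concentrated. In all, 4 of the 41 higher and 3 of the 25 lower genes at 15 min and 4 of the 46 higher genes at 60 min had at least 50% of their UMIs in 1 cell. S100g, a calcium-binding protein gene of the distal nephron with the lowest ratio among abundant genes at 15 min, stood at 184, 29.8 and 161 CPM and was found in 23.1%, 11.7% and 28.7% of S2 cells. It stood at 157, 1.85 and 133 CPM in the cells with 2 or more Ptprc UMIs, again lowest at 15 min.

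A small set of genes set the 60 min library apart in S2 cells and in every other group looked at. Gm10076, a predicted gene, stood at 193, 233 and 597 CPM in S2 cells, a log2 ratio of 1.63 (1.56 to 1.71) at 60 min, and its ratio was 1.502 in S1 cells, 1.32 in S3 cells, 1.60 in the cells with Ptprc UMIs and 1.60 in those with Pecam1 UMIs. The ratios of Usp50 in the same order were 1.17, 1.11, 1.47, 1.38 and 1.47. Gstp1, the glutathione transferase that alone passed 2-fold at 60 min among the conjugation genes, stood at 134, 173 and 296 CPM in S2 cells and its ratio was between 1.15 and 1.58 in all 5 groups. AY036118, which overlaps a ribosomal RNA repeat, was lower in all 5, by a log2 ratio of -1.14 in S2 cells (745, 616 and 339 CPM) and of -0.997 to -1.38 elsewhere. The other genes at least 2-fold lower at 60 min were Aqp2, with 21.03, 0.0658 and 4.51 CPM, and Ctxn3, with 35.0 CPM in the control and 16.5 CPM at 60 min, both named after their values were seen. A single S2 cell held 87.0% of the Aqp2 UMIs of the control, and without the highest member of each library the log2 ratio of Aqp2 at 60 min was 0.25 in place of -2.22.

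The nuclear RNA Malat1, retained in the nucleus of most cells, was low in S2 cells and differed among libraries. It summed to 2039, 1189 and 5506 CPM in the control, 15 min and 60 min libraries, a log2 ratio of -0.78 (-0.80 to -0.75) at 15 min and 1.43 (1.41 to 1.46) at 60 min. No Malat1 UMI was found in 47.0% of control, 36.6% of 15 min and 16.9% of 60 min S2 cells, although their median depth was 5351, 6708 and 5084.5 UMIs. Between 1 and 4 UMIs were found in 47.1%, 58.7% and 68.3%, and 5 or more in 5.91% (4.90 to 7.05), 4.74% (4.15 to 5.38) and 14.8% (12.9 to 16.8). In the members with fewer than 5, Malat1 stood at 136, 159 and 285 CPM, so the lower sum at 15 min rested on the members with 5 or more. The cut at 5 was set after the values were seen, and 9.10%, 11.5% and 28.5% of members had 3 to 7 UMIs. Cells with 2 or more Ptprc or Pecam1 UMIs had 5 or more Malat1 UMIs in at least 99.5% of cases in each library, at 27640 to 64670 CPM.

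**Figure D5:**
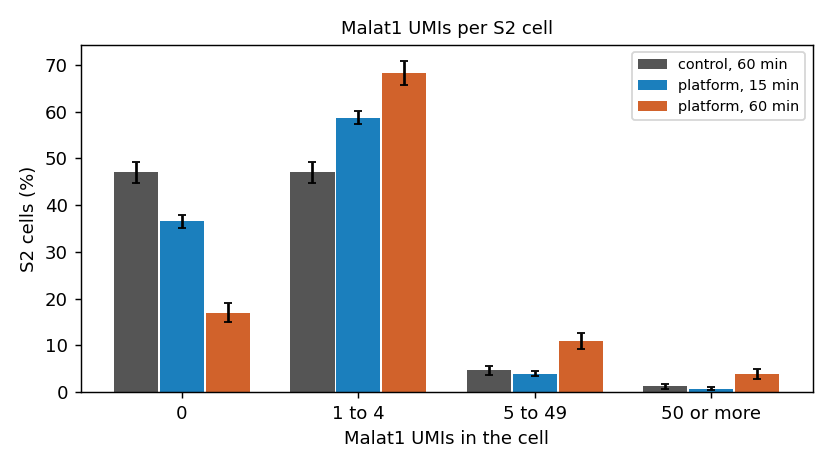
Share of S2 cells with 0, 1 to 4, 5 to 49 and 50 or more Malat1 UMIs in each library, in percent; bars show 1 library each and whiskers exact 95% binomial limits. Cells with 0 Malat1 UMIs made up 47.0%, 36.6% and 16.9% in the control, 15 min and 60 min libraries.

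The few S2 cells with 5 or more Malat1 UMIs (115, 225 and 201) had the higher levels of early response RNA. Jun stood in them at 714, 207 and 873 CPM, against 97.7, 18.2 and 120 CPM in the other S2 cells, and Hspa1a at 184, 24.2 and 496 CPM against 21.1, 2.78 and 46.2 CPM. Tubule genes differed far less between both kinds of member, with Kap at 58864, 94533 and 58569 CPM against 63312, 118080 and 65208 CPM and Slc22a6 at 751, 1109 and 871 CPM against 698, 1295 and 799 CPM. Within each kind of member the 15 min library was the lowest for Jun and Hspa1a and the highest for Kap and Slc22a6. At 60 min, the count of genes at least 2-fold higher was 27 among the members with fewer than 5 Malat1 UMIs and 265 among those with 5 or more, whose sums rest on few cells.

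Of the 25 genes at least 2-fold lower at 15 min and the 46 at least 2-fold higher at 60 min, 8 were on both lists, which is 32.0% of the first and 17.4% of the second. Both comparisons used the same control library, so the overlap is given as a count without a test.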

How the data were processed

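Single-cell RNA of mouse kidney was measured in 3 droplet libraries, 1 per dissociation condition. The authors aligned reads to mm10 with Cell Ranger 3.1.0 and deposited raw UMI counts (whole numbers for each gene in each cell) after the Aggr step evened mapped reads per cell across libraries. The deposited lists of other values gave library names, barcodes and gene symbols. The annotation release is not given in the sources used here, and the mammary tumor libraries were not used here.

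Counts of 31053 genes were read with Python 3.11.15, numpy 2.4.6, scipy 1.17.1 and pandas 2.3.3, and plots were made with matplotlib 3.10.9. Cells with 200 to 3000 genes and at most 50% mitochondrial UMIs were kept, following the study's filters. No doublet caller was run. The upper gene limit and the exclusion of cells with Ptprc or Pecam1 UMIs stood in for one, and cells of mixed origin may remain. UMIs of the members were summed per library and divided by the total of nuclear-encoded UMIs (CPM). Genes at 10 CPM or more in the mean of the 2 libraries compared were kept, and those at least 2-fold apart were counted. No pseudocount was added. The 17 rule genes and the mitochondrial genes were left out of these counts. Intervals are exact Poisson, exact binomial or exact conditional 95% limits. The counting steps were tested on simulated data.

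The named genes were the members of 35 lists, the 10 genes with the highest and the 10 with the lowest ratio at 100 CPM or more in the higher of 2 libraries, the 10 most abundant genes, and the 10 genes with the clearest peak over S1 and S3 cells at 50 CPM or more. Any other gene named was chosen after its value was seen. The members and lists were chosen with earlier results of these data known. Gene starts and promoter letters came from RefSeq on GRCm38.p6. All 3 promoters of the defining genes matched by symbol, and the starts of Slc22a8 and Slc22a6 differ from those of the annotation behind the counts. Some genes are not reported here.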

Additional observations from a re-analysis of the deposited data

Results flagged for a closer look

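In S2 cells, 15 genes were lower than the control at 15 min and higher than the control at 60 min by at least 0.5 on the log2 scale, among genes above the level filter in both comparisons that were on a list or reached 100 CPM in a library. With 1 library per condition the difference between both platform times was not tested, and both ratios share the control library. Early response genes made up 8 of the 15. Genes on a list could enter at a lower level than others, and the share of early response genes among all eligible genes is not given. The 8 are therefore a count only. The log2 ratios at 15 min and 60 min were -2.27 and 0.78 for Jun and -2.23 and 0.67 for Junb, which encode AP-1 subunits, and -6.15 and 1.07 for the stress-induced factor Atf3. They were -1.87 and 0.62 for Ier2, -1.22 and 0.90 for the phosphatase gene Dusp1 and -1.17 and 0.62 for Zfp36, whose product promotes decay of inflammatory messenger RNAs. They were -1.52 and 0.59 for the zinc finger factor Klf6 and -0.96 and 0.62 for Nfkbia, an inhibitor of NF-kappaB.

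Outside that list, the ratios were -3.00 and 1.87 for the inducible chaperone Hspa1a and -0.51 and 0.85 for its partner Dnajb1. They were -1.15 and 0.52 for the metallothionein Mt1 and -0.78 and 1.43 for the nuclear RNA Malat1. The 115 control members with 5 or more Malat1 UMIs held 21632 of its 23080 UMIs in the control. In the members with fewer than 5, Malat1 stood at 136, 159 and 285 CPM in the control, 15 min and 60 min libraries, so not lowest at 15 min. In S1 cells its ratio at 15 min was 0.82. Tmsb4x, an actin-binding peptide gene abundant in leukocytes and endothelial cells, had ratios of -2.11 and 1.57. The kallikrein Klk1 and the uromodulin gene Umod are genes of the distal nephron, with ratios of -2.79 and 0.51 and of -1.67 and 1.21. A single S2 cell held 55.8% of the Klk1 UMIs of the 15 min library. For Umod a single cell held 47.5% of the UMIs of the control and 49.9% of those at 15 min, and without the highest member of each library the ratios of Umod were -1.73 and 1.97.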

How the results depend on the processing

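With 1 library per condition no replicate could be left out. No paired analysis was possible because each group had 1 library. Alternatives with Malat1, single cells, the S1 or S3 lean, Kap and the segment-UMI base were chosen after seeing the data, and causes were not tested unless the setting itself is one. The S2 share at 15 min over control (1.71) was 1.61 with 2 or more and 1.94 with 8 or more marker UMIs, 1.58 without upper limits, 1.60 after thinning and 0.956 on the segment-UMI base. At 60 min (0.414) it was 0.461 without upper limits and 0.738 on that base. The number of genes higher at 15 min (41) was 77 at 25% mitochondrial UMIs or less, 215 without upper limits, 72 after thinning, 10 with all UMIs in the totals, 109 with the median set to 0, 19 at 50 CPM, 65 in members with 3000 to 10000 UMIs, 86 in members leaning to S1, 13 in those leaning to S3, 105 in those with 5 or more Malat1 UMIs and 77 without Kap. The number lower at 15 min (25) was 48 with 2 or more marker UMIs, 16 without upper limits, 47 after thinning, 2 at 50 CPM, 108 without a filter and 286 with 5 or more Malat1 UMIs. The number higher at 60 min (46) was 105 after thinning, 14 at 50 CPM, 291 without a filter, 78 as the mean of each cell's CPM, and 265 and 27 with 5 or more and fewer Malat1 UMIs. The number lower at 60 min (3) was 1 with 8 or more marker UMIs, 8 after thinning, 1 at 50 CPM, 9 without a filter, 7 in members with 3000 to 10000 UMIs, 6 and 1 in those leaning to S1 and S3, and 167 and 1 with 5 or more and fewer Malat1 UMIs.

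Single genes turned in direction where few cells held their UMIs or cells were added. At 15 min the log2 ratio of Igkc turned to -1.38 and that of Ighm to -1.515 in members with 3000 to 10000 UMIs, to -0.95 and -1.28 without the highest member and to -1.52 and -2.50 with fewer than 5 Malat1 UMIs. Without upper limits Zfp36 turned to 0.0396 and Umod to 0.11 at 15 min and Neat1 to -0.0267 at 60 min, and after thinning Fxyd4 turned to 0.28 at 15 min. With 5 or more Malat1 UMIs, Hba-a1 turned to -0.77, Umod to -1.16, Slc12a1 to -0.11, Ppp1r1a to -0.15 and Neat1 to -0.00621 at 60 min. Aqp2 at 60 min turned to 0.76 with 8 or more marker UMIs, 2.36 after thinning, 0.25 without the highest member, 0.94 in members leaning to S3 and 0.97 with fewer than 5 Malat1 UMIs. At these depths a value under 0.376 CPM at 60 min rests on fewer than 3 UMIs.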

Other observations

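RNA of cells that lie outside the proximal tubule differed among the S2 cells of the libraries in other ways than macrophage RNA did. Stromal markers summed to 18.9, 0.132 and 5.63 CPM in the S2 cells of the control, 15 min and 60 min libraries, highest in the control. Distal convoluted tubule markers summed to 40.0, 4.64 and 45.7 CPM, with the 15 min library the lowest, and collecting duct markers to 66.9, 31.3 and 61.6 CPM. Lymphocyte, granulocyte and podocyte markers stayed at or below 5.01 CPM, with the exception of B lymphocyte markers, which summed to 22.1, 171 and 22.9 CPM and in which 1 cell held most of the 15 min UMIs. Cell cycle genes summed to 19.5, 19.1 and 21.4 CPM. The part of RNA from other cells in these sums was not tested.

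Several of the genes that were lowest at 60 min relative to the control were S2-type or metabolic genes, and none of them reached 2-fold. Odc1 stood at 3206, 2581 and 2373 CPM, a log2 ratio of -0.43 at 60 min, and Sat1, which acetylates polyamines for breakdown, stood at 470, 399 and 363 CPM. The dipeptidase Cndp2 stood at 3060, 2828 and 2283 CPM and the alcohol dehydrogenase Adh1 at 275, 326 and 208 CPM. Mkrn1 and Npm3, which peaked in S2 cells, had log2 ratios of -0.36 and -0.43.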
